A study of Arabidopsis thaliana with 12 samples.

Results

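Transcript levels of 3 nuclear genes from families linked to gene expression in chloroplasts and mitochondria were followed in herbicide-treated Arabidopsis thaliana: AT3G18870 of the mTERF family, AT3G13150 of the pentatricopeptide repeat (PPR) family and AT5G64150 of a methyltransferase family. Each is read by 1 array probe (443, 2433 and 2227) that the platform annotation assigns to that gene alone, and no other annotated probe lists any of the 3 genes. They are 3 of 677 tested probes with a single annotated gene and 3 of 3381 tested probes in all. The genes were chosen by family name and with earlier results of the light and dark comparison of these samples in view, so their levels and changes are given as a description and support no statement beyond themselves. The family names come with the list of genes, not from the array annotation or the RefSeq gene table, which hold only locus names for these 3, and whether each protein works in plastids, in mitochondria or elsewhere was not examined.

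All 12 samples were total RNA of wild-type plants of ecotype Landsberg treated with 500 µM bromoxynil, an inhibitor of photosystem II that occupies the plastoquinone site of the D1 protein and so stops photosynthetic electron flow. The light group (n = 6) had been returned to light for 30 min after a dark period of 12 h, and the dark group (n = 6) was taken after 12 h in darkness with no return to light. Both groups carried the herbicide, so every difference below is one between light and dark in its presence. Whether the 6 samples of a group came from separate plants is not stated in the labels, so the spread between them may be partly technical.

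Chloroplasts and mitochondria keep small genomes of their own, but most proteins that transcribe, process and translate them are encoded in the nucleus and imported. In plants, mTERF proteins are helical repeat proteins that bind nucleic acids and act in organelle transcription, intron splicing and ribosome assembly. PPR proteins form one of the largest plant families and bind single organelle RNAs to direct their editing, splicing, stability or translation. Methyltransferases of these compartments move methyl groups from S-adenosylmethionine onto ribosomal RNA, transfer RNA or proteins of translation. Light is a main regulator of plastid gene expression, and photosynthetic electron flow is one of the signals involved.

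The probe intensities are relative values, and the intensity of one probe cannot be set against that of another as an amount of transcript. Light 1 and light 2 stood apart in scale: their median deposited intensities over tested probes were 3.95 and 3.97, and those of the other 10 samples lay between 0.568 and 0.668. The log2 intensities were therefore quantile normalised, which gives every sample the same set of values and keeps the order of its probes. Samples numbered 1 and 2, 3 and 4, and 5 and 6 resembled each other within a group, and values are given by these partners where they differ. The keyword list for green tissue matched 3 measured genes. Their percentiles among the tested probes of a sample describe how bright each probe was and are not amounts of transcript. PSBW, a small photosystem II subunit, lay at a mean percentile of 99.0 in light and 99.7 in dark samples, and LHB1B2 of the light-harvesting antenna at 99.0 in both groups. PSBY, another small photosystem II protein, lay at 77.5 in light and 68.5 in dark samples. The normalised log2 changes, light minus dark, were -0.91 ± 0.36 (SE) for PSBW, 0.02 ± 0.11 for LHB1B2 and 0.27 ± 0.10 for PSBY. That of PSBW was uneven, with -2.10 in numbers 1 and 2, -0.17 in 3 and 4, and -0.46 in 5 and 6. The listed markers of seed, root and pollen were on no single-gene probe.

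AT3G18870, the mTERF family gene, was higher in light than in darkness in 6 of 6 sample numbers, by a log2 change that ranged from 0.05 to 0.68. Its deposited intensities in light samples 1 to 6 were 10.3, 11.0, 1.38, 1.28, 1.59 and 1.68, against 1.09, 1.20, 1.37, 1.31, 0.997 and 1.14 in dark samples 1 to 6. The high first values of the light group go with the scale of those 2 samples. After division by each sample's median they became 2.62, 2.77, 2.33, 2.16, 2.79 and 2.96 in light, against 1.64, 1.82, 2.05, 1.97, 1.57 and 1.79 in dark samples. On this scale every light sample lay above every dark sample, with light 4 the lowest light value and dark 3 the highest dark value. How many of all probes separate the groups on this scale, or change in 1 direction in 6 of 6 numbers, was not counted.

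The quantile-normalised log2 intensity of AT3G18870 averaged 1.09 ± 0.15 in light and 0.65 ± 0.17 in dark samples (SD, n = 6 each). The change was 0.43 ± 0.10 (SE, 95% confidence interval 0.21 to 0.65), or 1.35-fold. With partner samples averaged the interval was 0.04 to 0.82. On the normalised scale the groups overlapped, because light 4 at 0.84 lay below dark 3 at 0.89. Numbers 1 and 2 gave a mean change of 0.61, numbers 3 and 4 one of 0.06, and numbers 5 and 6 one of 0.62. Most of the difference thus sat in 4 of the 6 numbers. Without numbers 1 and 2 the change was 0.34 ± 0.12 (SE). The mean percentile of the probe among all tested probes was 89.5 in light and 80.1 in dark samples.

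**Figure D1:**
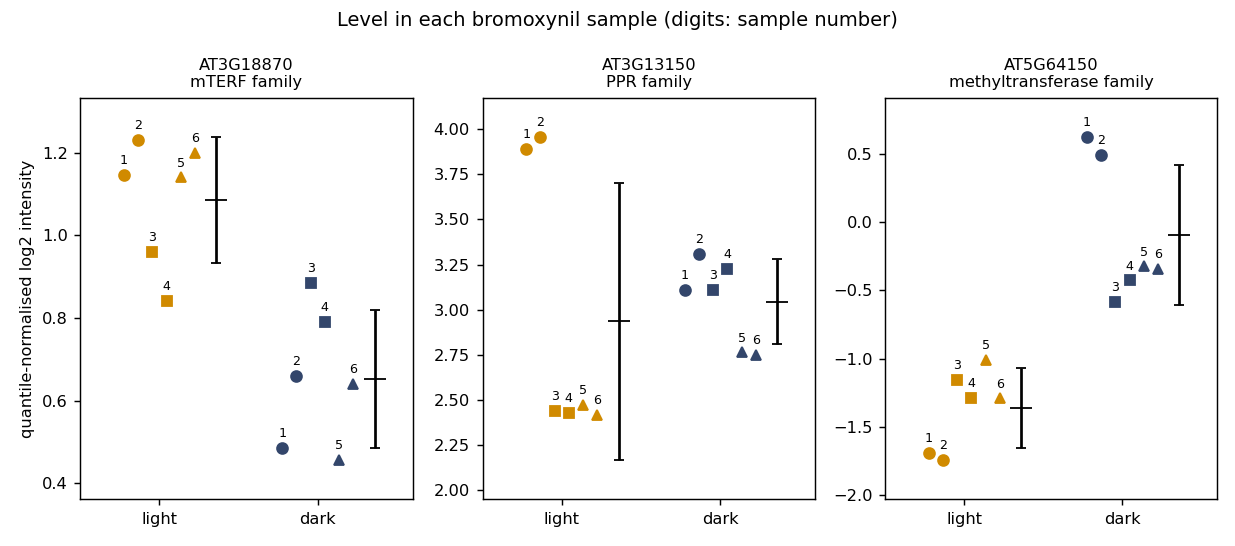
Quantile-normalised log2 intensity (vertical axis) of the 3 genes in each light and dark sample, with sample numbers beside the points, marker shapes for numbers 1 and 2, 3 and 4, and 5 and 6, and the mean ± SD of each group as a black bar. The light and dark points of AT5G64150 do not overlap, those of AT3G18870 overlap only between light 4 (0.84) and dark 3 (0.89), and those of AT3G13150 form a high pair (light 1 and 2, 3.89 and 3.96) and a low set of 4 (2.42 to 2.47) in light.

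AT5G64150, the methyltransferase family gene, was lower in light in 6 of 6 sample numbers, and its 2 groups did not overlap on any scale examined that adjusts for the sample medians. On the normalised log2 scale the groups did not overlap for 4.55% of all tested probes. The share on the other scales, or with 1 direction in 6 of 6 numbers, was not counted. The deposited intensities of AT5G64150 were 1.23, 1.21, 0.310, 0.282, 0.334 and 0.272 in light samples 1 to 6, against 1.18, 1.07, 0.527, 0.588, 0.593 and 0.592 in dark samples 1 to 6. As multiples of the sample median they were 0.312, 0.304, 0.525, 0.477, 0.585 and 0.479 in light, against 1.79, 1.63, 0.788, 0.886, 0.936 and 0.928 in dark samples. The probe was thus dimmer than the median spot in all 6 light samples, and in the dark it was brighter than the median spot in samples 1 and 2 only.

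The normalised log2 intensity of AT5G64150 averaged -1.36 ± 0.29 in light and -0.09 ± 0.52 in dark samples (SD, n = 6 each). The change was -1.27 ± 0.23 (SE, 95% confidence interval -1.78 to -0.77), so dark samples were 2.41-fold higher. With partner samples averaged the interval was -2.09 to -0.45. The size of the change was uneven, with -2.28 for samples 1 and 2, -0.72 for 3 and 4, and -0.82 for 5 and 6. Both groups contributed to the larger change in numbers 1 and 2. Light 1 and 2 averaged -1.72 and light 3 to 6 averaged -1.19, while dark 1 and 2 averaged 0.56 and dark 3 to 6 averaged -0.42. Without light 1 and light 2 alone the change was -1.09 ± 0.25 (SE), or 2.14-fold higher in dark samples. Without numbers 1 and 2 of both groups it was -0.77 ± 0.09 (SE), which is 1.70-fold higher in dark samples. The mean percentile was 20.1 in light and 55.2 in dark samples, and the difference, light minus dark, ran from -64.9 to -15.3 percentile points across the 6 numbers.

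AT3G13150, the PPR family gene, was among the brightest probes in every sample, and the direction of its change depended on the sample number and on the scaling. Its deposited intensities were 27.1, 28.0, 4.26, 4.44, 4.56 and 4.29 in light samples 1 to 6, against 7.32, 8.29, 7.20, 7.12, 5.36 and 5.20 in dark samples 1 to 6. As multiples of the sample median they were 6.86, 7.04, 7.22, 7.52, 7.97 and 7.55 in light, against 11.0, 12.6, 10.8, 10.7, 8.46 and 8.15 in dark samples. By this measure the gene was lower in light in 6 of 6 numbers and the groups did not overlap, although dark 5 and 6 came close to light 5. How many of all probes do the same by this measure was not counted.

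By rank the picture differed in numbers 1 and 2. The probe was the 19th and 18th brightest in light 1 and 2, between the 72nd and 76th brightest in light 3 to 6, and between the 32nd and 54th brightest in the 6 dark samples. A lower multiple of the sample median thus held a higher rank in light 1 and 2 than in light 3 to 6. Light 1 and 2 therefore differed from light 3 to 6 in more than scale. Quantile normalisation follows these ranks, so the normalised log2 intensities were 3.89, 3.96, 2.44, 2.43, 2.47 and 2.42 in light, against 3.11, 3.31, 3.11, 3.22, 2.76 and 2.75 in dark samples. Numbers 1 and 2 thus gave a change of 0.72, but 3 and 4 gave -0.73, and 5 and 6 gave -0.31. Over the 12 samples it was -0.11 ± 0.31 (SE, 95% confidence interval -0.79 to 0.57), from means of 2.93 ± 0.77 in light and 3.04 ± 0.24 in dark samples (SD, n = 6 each). With partner samples averaged the interval was -1.21 to 0.99. With median centring in place of quantile normalisation the change was -0.47 ± 0.11, made up of -0.76, -0.55 and -0.10 in the same 3 sets of numbers. Without light 1 and light 2 it was -0.61 ± 0.12 on the quantile-normalised scale. The SEs of these 2 fits treat partner samples as independent and may be too small.

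**Figure D2:**
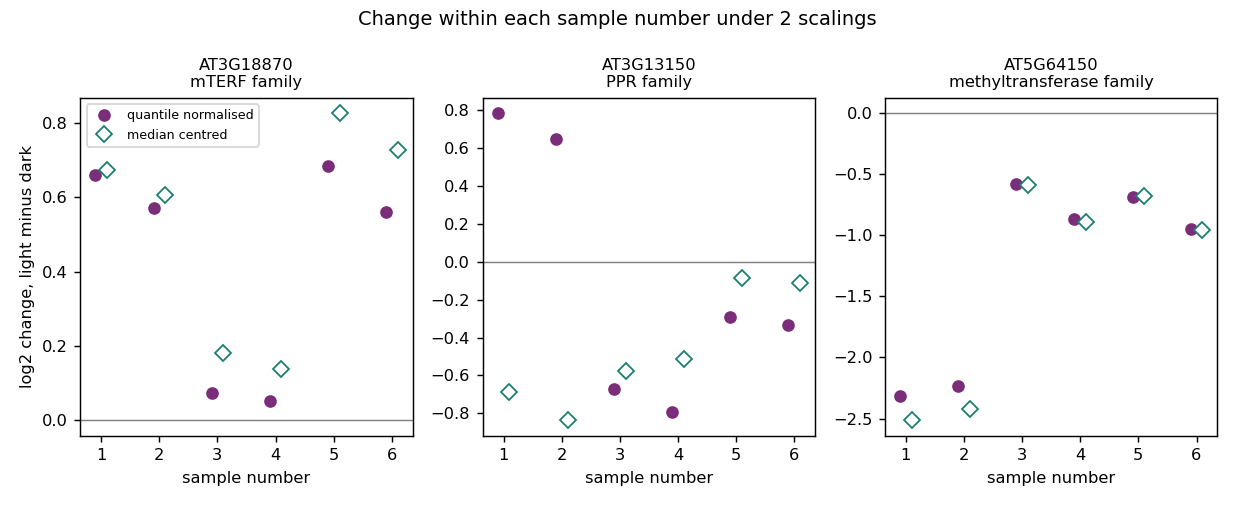
Log2 change, light minus dark (vertical axis), within each sample number (horizontal axis) for the 3 genes, after quantile normalisation (filled circles) and after median centring (open diamonds). The scalings differ in sign only for AT3G13150 in numbers 1 and 2, at 0.78 and 0.65 against -0.69 and -0.84, while AT5G64150 is below 0 and AT3G18870 above 0 in all 6 numbers under both.

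The light samples of AT3G13150 numbered 3 to 6 were closely alike after quantile normalisation, at 2.42 to 2.47. With median centring they spread more, from 2.23 to 2.37. Their SD was 0.023 on the normalised log2 scale, at percentile 1.86 of this SD over all tested probes, whose median was 0.16. It was not compared with that of equally bright probes. With light 1 and 2 included, the SD of the light group was 0.77, at percentile 86.3. For AT5G64150 the wider group was the dark one, with an SD of 0.52 at percentile 83.9, and for AT3G18870 neither group was wide, at percentiles 16.2 in light and 28.9 in dark samples. Partners of one group differed by at most 0.28 in any of the 3 genes, in light 5 and 6 for AT5G64150.

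In the fit across all probes (limma, adjusted p under 0.05 over 3381 probes), 96 probes, or 2.84%, were past the threshold, and 2 of the 3 genes were among them. The limma adjusted p was 0.0164 for AT5G64150, 0.0422 for AT3G18870 and 0.875 for AT3G13150. The groups did not overlap in normalised log2 intensity for 1 of the 3 genes, AT5G64150, and for 4.55% of all tested probes. Since the genes were chosen with this contrast known, nothing is read from these counts. The share of all probes without overlap on the other scales, or with 1 direction in 6 of 6 numbers, was not counted. With the sample number as a replicate block, 3.43% of probes were past the threshold and 0 of the 3 genes (limma adjusted p 0.0686 for AT5G64150, 0.0904 for AT3G18870 and 0.781 for AT3G13150). With the partners as a random block, 0.473% were past it and again 0 of the 3 genes (limma adjusted p 0.0569, 0.307 and 0.972 in the same order). AT3G18870 was past the threshold in 2 of the 12 fits without a single sample (without light 4 and without dark 3), AT5G64150 in 12 and AT3G13150 in 0. In these fits the change of AT3G13150 ran from -0.32 without light 2 to -0.0067 without light 6.

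Against all tested probes, whose median change was 0.02 and whose median absolute change was 0.20, the change of AT5G64150 lay at percentile 1.86, that of AT3G13150 at 32.2 and that of AT3G18870 at 89.6. Over all probes the changes of numbers 1 and 2 had an SD of 1.04, those of 3 and 4 one of 0.55, and those of 5 and 6 one of 0.59, so large changes in numbers 1 and 2 were common across the array. For AT5G64150 the change was -1.27 with all 12 samples, -1.09 without light 1 and 2, and -0.77 without numbers 1 and 2 of both groups.

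**Figure D3:**
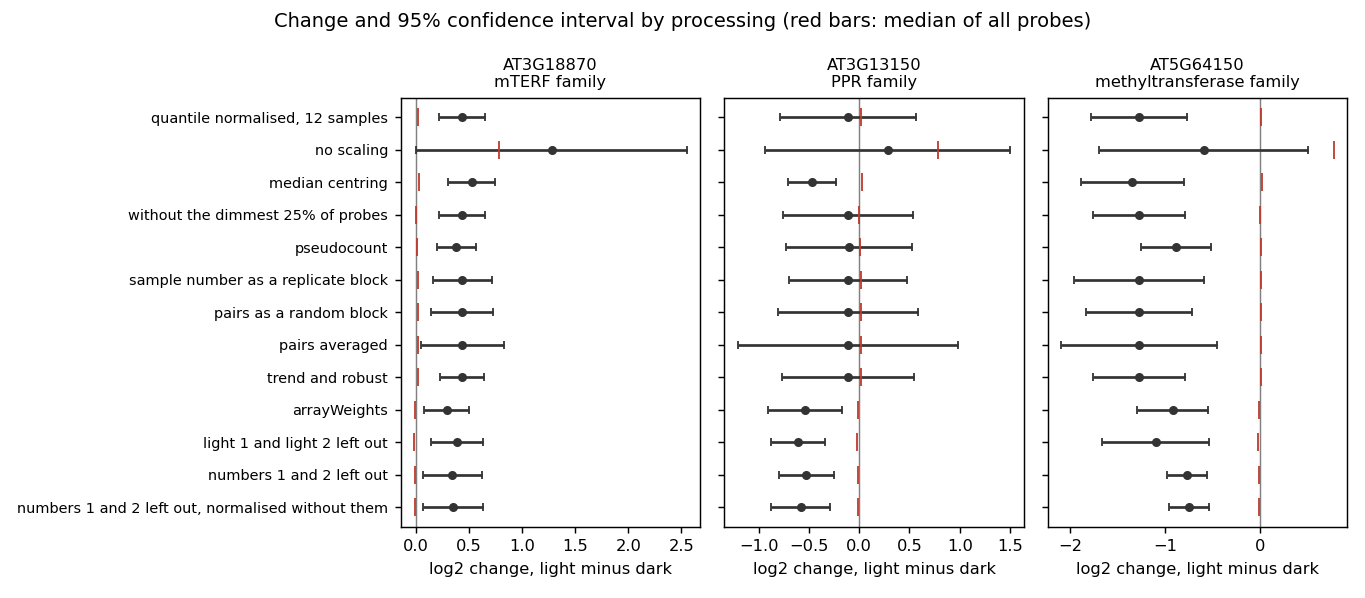
Log2 change, light minus dark, with its 95% confidence interval (horizontal axis) for the 3 genes under 13 ways of processing (rows), with the median change of all probes as a red bar. AT3G18870 stays above 0 (0.29 to 1.28) and AT5G64150 below 0 (-1.34 to -0.59) in all of them, and AT3G13150 runs from -0.61 to 0.28, its only positive value, without scaling. Rows with a block, averaged pairs, trend and robust fitting or without the dimmest probes repeat the first row's estimate.

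Other genes of organelle gene expression were sought by keyword in gene symbols and synonyms, since gene products were not in the annotation used, so genes known there only by a locus name were not found. By keyword 1 further mTERF gene was found, mTERF9 (AT5G55580), which acts in chloroplasts. Its normalised log2 intensity was 0.999 ± 0.190 in light and 1.10 ± 0.141 in dark samples (SD, n = 6 each), a change of -0.10 ± 0.10 (SE). No further PPR gene was found by keyword on a single-gene probe, nor any of 15 listed loci for sigma factors, phage-type RNA polymerases and proteins of the plastid-encoded polymerase, nor tRNA synthetases or organelle translation factors. The keyword methyltransferase gave CHLM, an enzyme of chlorophyll synthesis and not of gene expression, with a change of 0.01 ± 0.19 (SE).

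Together with mTERF9, 5 genes were then added by name, after the annotation had been read: the PPR proteins OTP70, OTP85 and CRR21, which process plastid transcripts, PAC, needed for plastid RNA maturation, and ATAB2, needed for translation of photosystem I subunits. Of these 6 genes, 0 were past the threshold in either direction in the limma fit. Among all 3381 tested probes 70 were higher and 26 lower, or 2.84% together, so nothing is read from the count of 0. The median change of the 6 genes was 0.04, and 3 of 6 were above 0, against 52.4% of all tested probes. OTP70 had a change of -0.0040 ± 0.096 and OTP85 of 0.08 ± 0.22 (SE). CRR21 averaged 0.93 ± 0.17 in light and 1.07 ± 0.08 in dark samples (SD), a change of -0.14 ± 0.09 (SE). PAC and ATAB2 had changes of 0.30 ± 0.26 and 0.24 ± 0.18 (SE), and in numbers 3 and 4 these were -0.05 and 0.11.

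Genes whose levels varied most like those of the 3 genes were found by Pearson correlation of normalised log2 intensity over the 12 samples, among 632 other single-gene probes above 0 in all samples. These values are descriptions: the points share the light and dark difference, the scaling and the partner samples. For AT3G18870 the nearest were AT2G38950 (r = 0.90), AT3G58570 (0.85) and AT3G04210 (0.85). With the group means taken out, r was 0.74, 0.72 and 0.43 for the same 3, and AT3G04210 lost most.

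For AT5G64150 the nearest were AT3G19810 (r = 0.97), AT3G54550 (0.93) and AGL103 (0.90), a MADS-box gene of the AGAMOUS-like family. With the group means taken out r was 0.91, 0.78 and 0.54. AT3G19810 was lower in light as well, with a change of -0.40. For AT3G13150 the nearest were AT5G04600 (0.91), AT5G53080 (0.90) and AT2G43990 (0.90), and in numbers 3 to 6 alone r was 0.75, 0.47 and 0.56 for the same 3. Between the 3 genes themselves r was -0.85 for AT3G18870 and AT5G64150, which changed in opposite directions. It was -0.47 for this pair with the group means taken out and -0.77 in numbers 3 to 6 alone. For AT3G18870 and AT3G13150 r was 0.16 over the 12 samples, 0.44 with the group means taken out and -0.44 in numbers 3 to 6. For AT3G13150 and AT5G64150 it was -0.08, -0.33 and 0.78 in the same order.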

How the data were processed

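The authors deposited 1 intensity per probe and sample, taken here as linear and relative because no value is negative. Their scanning, background correction and scaling are not given in the labels or the table, and signal over background is unknown. Of 3439 probes, 58 listed at 0 in every sample were left out. Remaining zeros took the sample's lowest positive value, log2 was taken, and samples were quantile normalised because the highest sample median was 6.98 times the lowest (limit 1.25). The light and dark groups were fitted with limma 3.58.1 under R 4.3.3 (two-sided moderated tests by lmFit and eBayes, Benjamini-Hochberg adjustment, no covariate). The fit was tested on simulated data drawn independently for each sample. That simulation held no likeness between partners or same-numbered samples, so it cannot show how many false calls the fit makes here. The members and lists were chosen with earlier results of these data known, and 5 genes were added by name. Named genes were the members, the 3 probes most like each, and listed genes. The RefSeq table holds no gene products, so keywords were sought in symbols and synonyms. Genome build and sequences were not used here.

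Same-numbered light and dark samples deviated together from their group means (correlations of 0.337 to 0.491 across probes for the 6 numbers), and 6 of 6 samples of each group correlated best with their own number. The changes by sample number use these pairs. The 12-sample fit did not pair the numbers, and the fit with the replicate block was run as an alternative. Partner samples (1 and 2, 3 and 4, 5 and 6) may be repeat measurements, which the labels do not settle. The SEs and adjusted p-values of the 12-sample fit may then be too small and its intervals too narrow. The random block fit put the correlation of partners at 0.669. With pairs averaged the limma adjusted p was 0.735 for AT5G64150, 0.804 for AT3G18870 and 0.962 for AT3G13150.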

Additional observations from a re-analysis of the deposited data

How the results depend on the processing

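AT3G18870 stayed higher and AT5G64150 lower in light under 24 of 24 alternatives each, and AT3G13150 lower under 23 of 24. The exception was no scaling, where AT3G13150 had 0.28, AT3G18870 1.28 and AT5G64150 -0.59, against a median of 0.78 over all probes, because light 1 and 2 kept their higher scale. These counts overstate how far direction was examined. Both block fits, pairs averaged, trend and robust fitting, and leaving out dim probes repeat the 12-sample estimate, so their direction was fixed. Fits without a single sample keep its partner, and the change of AT3G13150 came as near 0 as -0.0067. The change of AT5G64150 was -0.77 without numbers 1 and 2, and -0.75 when the other 8 samples were also normalised without them, a setting chosen after seeing the data. Of the 3 genes, 2 were past the threshold in the 12-sample fit, 3 with median centring (AT3G13150 at limma adjusted p 0.0420), 1 with arrayWeights, without light 1 and 2 or without numbers 1 and 2 (under either normalisation), and 0 without scaling, with the replicate block, with the random block or with pairs averaged. Leaving out each sample gave 1 to 2. Without light 1 and 2, AT3G13150 was past it (0.0316) and AT5G64150 was not (0.0520), with a change of -1.09, or 2.14-fold. Over all probes 96 were past the threshold, 2 without scaling, 16 with the random block, 1 with pairs averaged, 174 with arrayWeights, and 60, 58, 46 and 57 without light 5, light 6, dark 3 and dark 4. The causes of these differences between settings were not tested. The pseudocount (0.205), which compresses dim probes, gave -0.88 for AT5G64150. Sequences of the genes and herbicide-free plants were not analysed here.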
